A study of Homo sapiens with 55 samples.

Results

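The comparison set K562 cells that overexpressed the U2AF1 S34F mutant against K562 cells that overexpressed wild-type (WT) U2AF1, both with a guide against GPATCH8 (sgGPATCH8). Its members were 3 S34F sgGPATCH8 libraries and 3 WT sgGPATCH8 libraries, 6 of the 55 samples of the series. They were picked by label, with earlier results of these data known. Pairing by the replicate number in their names was set because replicate 1 libraries lay apart in their values. The rest of the same panel is given beside this comparison: 3 S34F sgRenilla and 3 WT sgRenilla libraries. Their control guide is against Renilla luciferase, a gene that human cells lack. K562 is an established human leukaemia line. The series asks what deletion of GPATCH8 does to splicing in cells with and without splicing factor mutations. The labels do not say whether the replicates were separate cultures, so p-values measure the spread between these libraries, which may be technical. Both groups carried an added U2AF1, and its promoter, its level beside the cells' own U2AF1 and how well the guide worked are not stated in the sources used here. The files held no gene levels, so loss of GPATCH8 itself could not be checked.

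U2AF1 is the small subunit of U2AF, the factor that marks the 3' splice site (the acceptor) for the spliceosome: U2AF2 binds the run of pyrimidines before the site, and U2AF1 contacts the AG at the end of the intron. Serine 34 lies in a zinc finger that reads RNA around this AG, and its change to phenylalanine is a recurrent mutation of myelodysplastic syndromes and acute myeloid leukaemia. The mutant is known to favour acceptors with C or A before the AG over those with T. GPATCH8 is a G-patch protein, a family that activates RNA helicases of the spliceosome.

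What was measured was the usage of 1 isoform of each splicing event, as its percentage among the isoforms of that event within a library. In alternative 3' splice site events it is the upstream site, in skipped exons the inclusion of the exon, in retained introns the spliced form, in alternative 5' splice sites the site that makes the shorter intron, and in mutually exclusive exons the upstream exon. Each library had a value for 73% to 74% of events, and the reads behind a value are unknown. The libraries of replicate 1 lay apart: across the 43468 tested events, log2 ratios of used over not used correlated at 0.91 to 0.935 between replicate 1 and the other replicates, and at 0.935 to 0.954 between replicates 2 and 3. The fit therefore compared libraries of the same replicate number.

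Acceptors of some named alternative acceptor and exon events are shown with 20 intron bases and 3 exon bases, where an annotated transcript spans the site. They come from GENCODE 29 transcripts (build GRCh38), 5′ to 3′, with the last 3 intron bases in capitals. Retained introns are left out of this display, and those of ITIH4, SPNS2, AVIL and MST1, spliced less with S34F, all end in CAG. The upstream and downstream sites of 1 event compete, so the letters of a pair can be read against each other.
CTNNB1 upstream: gcctttctctctttataCAGctg
CTNNB1 downstream: tctggtcctttttggtcGAGgag
PICALM upstream: cgtctgtttgtaactttAAGgct
PICALM downstream: ttaaggctttgatgaacTAGgtg
TRMT13 upstream: taatcttgtgaagtttgCAGgct
TRMT13 downstream: ggttgatattgccttaaAAGatg
CASP8 downstream: ttctcctgccttttaaaAAGatg
ZSCAN31 downstream: agttatccctttacttaAAGcca
BCOR downstream: ggtgtgcattgaattaaCAGggc
For exons whose inclusion moved, the acceptor of the exon is shown.
ATR exon: catatccaccttttcctAAGatg
BCAS3 exon: aatgcttttcttttcaaAAGgga
SRSF2 exon: tgcattttccccctttaAAGctg
CCDC180 exon: cacccacctttgtcccaCAGctt
CORO6 exon: acacccacccctctgccCAGttt
ALDOC exon: cttccaaccttttcctcTAGaag

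With sgGPATCH8, 378 of 43468 tested events (0.87%) were called as different between S34F and WT. Of the tested events 196 rose with S34F (0.451%) and 182 fell (0.419%), in 297 named genes. A call needed a Benjamini-Hochberg adjusted p under 0.05 in limma and a difference of at least 5 percentage points. The called events had a median difference of 17.5 points, against 3 points over all tested events, and the groups did not overlap in 354 of the 378 (93.7%, against 15.1% of all tested events). The rule for a call picks such events, so neither value is support for the calls. Many calls lay near the threshold, with adjusted p at 0.04 or above in 231. Without pairing by replicate number limma called 10 events (3 up, 7 down). A fit of only the 6 sgGPATCH8 libraries gave 0 calls, with a lowest limma adjusted p of 0.309, so the calls rest on the spread over all 12 libraries. Leaving out any 1 of the panel's 12 libraries gave 0 to 3 calls, and leaving out replicate 1, 2 or 3 in all 4 groups gave 0. All 378 kept their direction, at an unadjusted p under 0.05, in each of these leave-one-out fits, and 7295 events had such a p in the full fit. These fits reuse libraries that picked the 378, so this is no independent check.

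**Figure D1:**
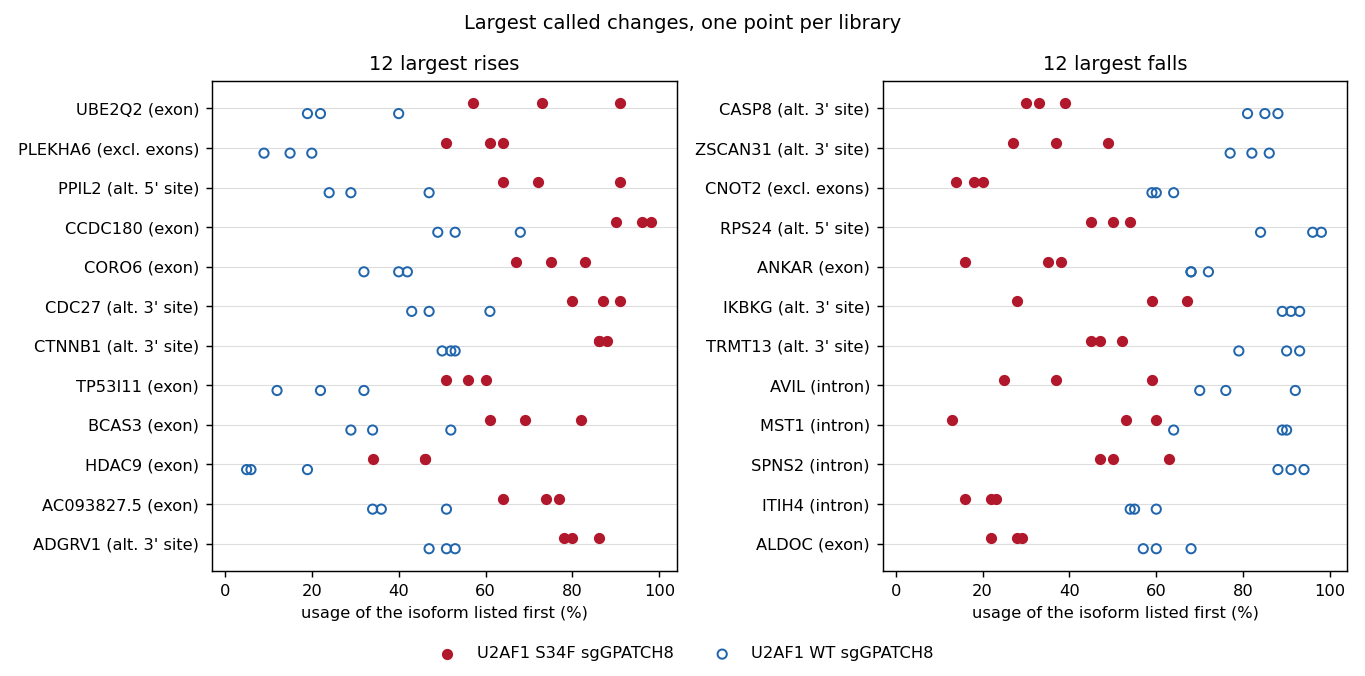
Usage in percent (x axis) of the isoform listed first in the 12 largest rises and the 12 largest falls, 1 point per library, filled red for U2AF1 S34F sgGPATCH8 and open blue for U2AF1 WT sgGPATCH8. In each of the 24 events the groups do not overlap, which their choice as the largest called changes favours. Of all tested events 15.1% do not overlap. CASP8 lies at 30% to 39% with S34F and 81% to 88% with WT.

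At alternative acceptors 84 of 10241 events were called (0.82%), of which 33 moved to the upstream site and 51 to the downstream site. The lowest p of all events was in CTNNB1, the gene of beta-catenin, the transcriptional coactivator of Wnt signalling. Its upstream site, in the 3' UTR on chromosome 3 (intron 41280845 to 41281151, hg19) and 159 nt before the downstream one, was used in 88%, 86% and 86% of transcripts in the S34F sgGPATCH8 libraries, against 50%, 52% and 53% in the WT sgGPATCH8 libraries. The 3 S34F libraries lay close together and far above all 3 WT libraries. The log2 ratio was 2.52 ± 0.19 (SE) higher, with a limma adjusted p of 0.016. The upstream site ends in CAG and the downstream one in GAG, as shown above.

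CASP8, the initiator caspase of death receptor signalling, went the other way. Its upstream site on chromosome 2 (intron 202123105 to 202131184), 26 nt before the downstream site, was used in 30%, 33% and 39% with S34F sgGPATCH8 and 88%, 81% and 85% with WT sgGPATCH8. All S34F libraries were far below all WT libraries, and the log2 ratio fell by 3.35 ± 0.31 (SE, limma adjusted p 0.026). A second event joins the same pair of acceptors to an exon further upstream (202098835), and there usage was 38%, 28% and 36% with S34F and 79%, 60% and 67% with WT (limma adjusted p 0.049). The downstream acceptor that S34F cells used more ends in AAG. These CASP8 events share their acceptors and are not independent.

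PICALM, a clathrin assembly protein rearranged in some leukaemias, used an upstream AAG 15 nt before a downstream TAG. Usage of the upstream site (chromosome 11, intron 85693046 to 85694909) was 82%, 80% and 79% with S34F and 64%, 58% and 59% with WT, with no overlap and a log2 ratio 1.38 ± 0.18 higher (SE, limma adjusted p 0.031). In TRMT13, a tRNA methyltransferase, the upstream site (chromosome 1, intron 100606070 to 100606408) ends in CAG and lies 115 nt before an AAG. It was used in 52%, 45% and 47% with S34F and 93%, 79% and 90% with WT, a fall of 39.3 points (limma adjusted p 0.032). BCOR, a transcriptional corepressor mutated in leukaemia, used its upstream site (chromosome X, intron 39923205 to 39923589) in 23%, 15% and 19% with S34F and 43%, 36% and 34% with WT, a fall of 18.7 points toward a CAG 102 nt away (limma adjusted p 0.033). ZSCAN31, a zinc finger protein, used an upstream site in its 5' UTR (chromosome 6, intron 28297555 to 28304567) in 49%, 27% and 37% with S34F and 77%, 82% and 86% with WT, a fall of 44 points toward an AAG 64 nt away (limma adjusted p 0.046).

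Of the alternative acceptors among the largest changes, 3 had sites 3 nt apart. CDC27, a subunit of the anaphase-promoting complex, used the upstream site in 91%, 87% and 80% with S34F and 43%, 47% and 61% with WT (limma adjusted p 0.039). ADGRV1, an adhesion receptor, used it in 86%, 78% and 80% with S34F and 47%, 51% and 53% with WT (limma adjusted p 0.045). IKBKG, the NF-kappaB regulator NEMO, used it in 67%, 59% and 28% with S34F and 89%, 93% and 91% with WT (limma adjusted p 0.049), and its S34F library of replicate 3 lay far below the other S34F libraries. CDC27 and IKBKG have near-identical copies in the genome, among which reads may be split, so their values are uncertain. Sites 3 nt apart were rarely called: 12 of 5152 events (0.233%), against 13 of 1735 (0.749%) at 4 to 30 nt. At 31 to 150 nt, 36 of 2060 (1.75%) were called, 8 up and 28 down, and above 150 nt 12 of 646 (1.86%), 10 up and 2 down.

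The letters of the acceptors were then set beside the direction, a property that the choice of libraries did not use. The last 3 intron bases of the downstream site could be read for 88.9% of the 9668 tested events with a pair of acceptors, and for 67 of their 73 called events. Where the downstream site was TAG, 14 called events moved to the upstream site and 1 to the TAG. Where it was AAG, 2 moved to the upstream site (CDC27 and ADGRV1) and 16 to the AAG, and for CAG the counts were 7 and 19, for GAG 4 and 4. Among all events that differed by 5 points or more, called or not, usage of the upstream site was higher with S34F in 64.4% where the downstream one was TAG (206 higher, 114 lower), in 49.5% for CAG (721 and 735), 39% for AAG (183 and 286) and 41.2% for GAG (333 and 475). The order of TAG above CAG above AAG held in each of the 3 replicate pairs, which gave 58.4%, 60.5% and 59.8% for TAG, 48.2%, 49.8% and 50.5% for CAG, and 43.3%, 42.5% and 42.6% for AAG. In the sgRenilla libraries the shares were 56.7% for TAG, 44% for CAG and 36.3% for AAG. Events of 1 gene can share a site, so these shares are a description and carry no test.

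**Figure D2:**
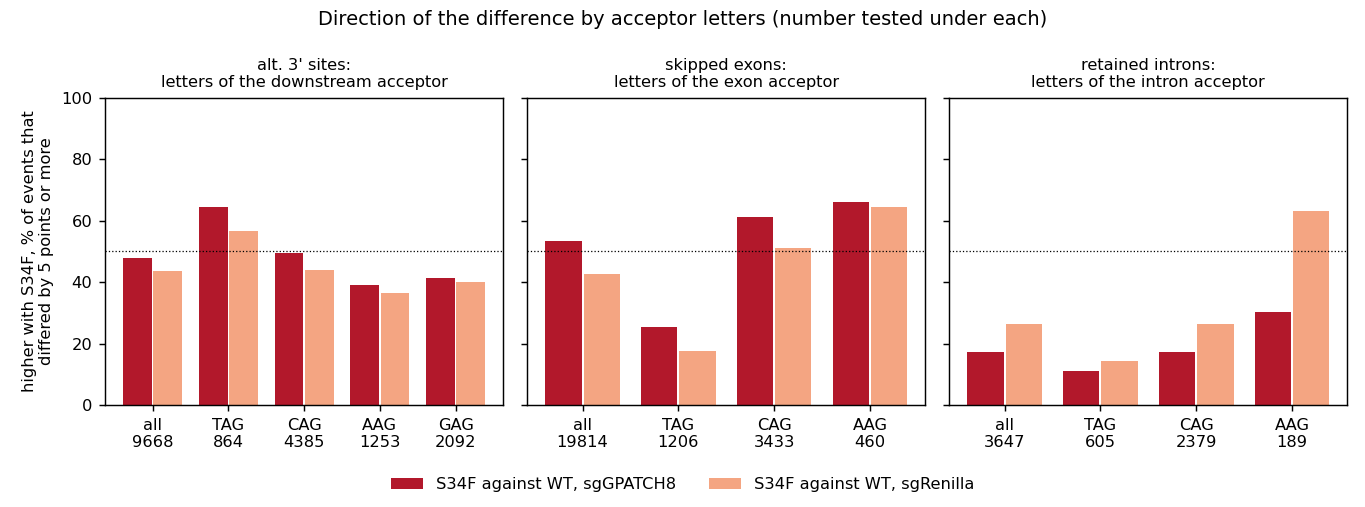
Share of events with higher usage in S34F (y axis, percent of those that differed from WT by 5 points or more) by the last 3 intron bases, for alternative 3' sites (left), skipped exons (middle) and retained introns (right), with sgGPATCH8 in red and sgRenilla in orange. Under each name stands the number of events tested, and the dotted line marks equal numbers higher and lower. At alternative 3' sites TAG has 64.4% with sgGPATCH8 and AAG 39%.

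Skipped exons made up most of the calls, 211 of 19814 tested (1.06%), with 131 exons included more and 80 included less. ATR, the kinase that starts the replication stress response, included an exon on chromosome 3 (upstream intron 142169444 to 142171970) in 39%, 49% and 43% with S34F sgGPATCH8 and 17%, 21% and 21% with WT sgGPATCH8. Its S34F libraries all lay above its WT libraries, and the log2 ratio was 1.62 ± 0.20 higher (SE, limma adjusted p 0.029). IRAK4, a kinase of Toll-like receptor signalling, included an exon (chromosome 12, 44162075 to 44165023) in 78%, 75% and 72% with S34F and 68%, 49% and 44% with WT (limma adjusted p 0.049). BCAS3 included an exon (chromosome 17, 59457932 to 59465979) in 82%, 61% and 69% with S34F and 52%, 29% and 34% with WT (limma adjusted p 0.032). In both genes the WT library of replicate 1 lay above the other WT libraries, and in each replicate pair S34F was higher.

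The largest rise of all was an exon of the ubiquitin-conjugating enzyme gene UBE2Q2, included in 91%, 57% and 73% with S34F and 40%, 22% and 19% with WT (limma adjusted p 0.047). CCDC180, whose junction an overlapping annotation, STRA6LP, shares, included an exon in 96%, 98% and 90% with S34F and 53%, 68% and 49% with WT (limma adjusted p 0.026). CORO6, an actin-binding coronin, was at 67%, 83% and 75% with S34F and 42%, 32% and 40% with WT (limma adjusted p 0.048). In these 3 genes no S34F library reached down to a WT library, which their choice among the largest called rises favours. Of all tested events 15.1% had groups without overlap. TP53I11, a p53-induced gene, AC093827.5 and HDAC9, a histone deacetylase, rose by 33.7, 31.3 and 32 points (limma adjusted p 0.034, 0.033 and 0.029).

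Exons also fell. ALDOC, the gene of the brain-type aldolase, included an exon of its 5' UTR (chromosome 17, 26903038 to 26903819) in 22%, 28% and 29% with S34F and 68%, 57% and 60% with WT, a log2 ratio that fell by 2.14 ± 0.24 (SE, limma adjusted p 0.026). That exon follows a TAG. ANKAR, which encodes ankyrin and armadillo repeats, was at 16%, 35% and 38% with S34F and 68%, 68% and 72% with WT (limma adjusted p 0.048). The acceptor letters could be read for only 26.2% of tested exons and 47 of the 211 called ones, because few annotated transcripts run through them, so a check of exons by letters is void for exons as a class. Among the readable called exons, 0 with TAG rose and 13 fell, of 1206 tested. With CAG 17 rose and 2 fell, of 3433 tested, and with AAG 11 rose and 4 fell, of 460 tested. Of exons that differed by 5 points or more, called or not, 25.3% with TAG rose, 61.3% with CAG and 66.1% with AAG. The share over all exons, read or not, was 53.4%.

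Called retained introns were mostly spliced less with S34F. Of 3647 tested, 29 were called (0.795%), 6 spliced more and 23 spliced less. Of those that differed by 5 points or more, called or not, 229 had a higher and 1085 a lower spliced share with S34F sgGPATCH8, and 256 and 720 with S34F sgRenilla. The mean spliced share over all 3647 was 65.61%, 66.19% and 67.38% in the S34F sgGPATCH8 libraries and 69.96%, 69.29% and 69.06% in the WT sgGPATCH8 libraries. The groups did not overlap and differed by −3.04 points, which gave a two-sided exact permutation p of 0.1, the smallest that 3 against 3 libraries can reach. With sgRenilla the means were 68.26%, 66.49% and 65.34% with S34F and 68.8%, 67.76% and 68.65% with WT. These overlapped, with a difference of −1.71 points (two-sided exact permutation p 0.2, also unpaired). By replicate pair the difference was −4.35, −3.1 and −1.68 points with sgGPATCH8 and −0.54, −1.27 and −3.31 with sgRenilla, lower with S34F in all 3 pairs of each guide. Without reads over introns or a measure of RNA quality in the files, the part that RNA quality has in these shares was not tested.

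**Figure D3:**
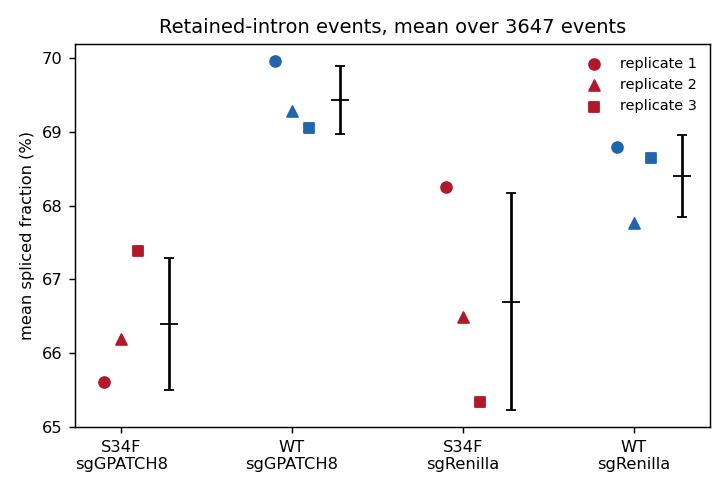
Mean spliced fraction in percent (y axis, from 65% to 70%) over the 3647 tested retained-intron events in each library, with the shape of a point giving its replicate number and the bar the mean ± SD of 3 libraries. The 3 S34F sgGPATCH8 libraries lie at 65.61% to 67.38% and the 3 WT sgGPATCH8 libraries at 69.06% to 69.96%.

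Single introns fell further with sgGPATCH8. ITIH4, an inter-alpha-trypsin inhibitor heavy chain, spliced a 132-nt intron (chromosome 3, 52853823 to 52853956) in 16%, 23% and 22% with S34F and 54%, 55% and 60% with WT (limma adjusted p 0.05, under the threshold before rounding). SPNS2, a transporter of sphingosine-1-phosphate, spliced an intron in 50%, 47% and 63% with S34F and 88%, 94% and 91% with WT (limma adjusted p 0.047). AVIL, the actin-binding protein advillin, did so in 37%, 25% and 59% with S34F and 70%, 76% and 92% with WT (limma adjusted p 0.048). MST1, which encodes macrophage-stimulating protein, did so in 13%, 60% and 53% with S34F and 64%, 89% and 90% with WT (limma adjusted p 0.026), so both its replicate 1 libraries were low. MST1 has near-identical copies, and its value is uncertain. With sgRenilla the S34F difference was 4 points in ITIH4, 6.33 in MST1, −9.33 in SPNS2 and −11.7 in AVIL, and none of these was called. The letters of the intron's acceptor were read for 88.3% of tested introns. Among called introns 0 with TAG were spliced more and 9 less, of 605 tested. With CAG 4 were spliced more and 12 less, of 2379 tested, and with AAG 2 more and 1 less, of 189 tested. Of introns that differed by 5 points or more with sgGPATCH8, 11.2% with TAG and 17.3% with CAG were spliced more, against 17.4% of all. Introns ending in AAG that differed by 5 points or more were higher in 21 and lower in 48 with sgGPATCH8, against 36 and 21 with sgRenilla, a contrast that was not tested.

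The other types had fewer calls. Mutually exclusive exons gave 29 of 3570 (0.812%), 13 up and 16 down, alternative 5' splice sites 17 of 4332 (0.392%), 11 up and 6 down, and tandem 3' UTRs 8 of 1864 (0.429%), 2 up and 6 down. CNOT2, a subunit of the CCR4-NOT deadenylase, used the upstream of 2 exclusive exons in its 5' UTR in 20%, 18% and 14% with S34F and 64%, 60% and 59% with WT, with a log2 ratio that fell by 2.84 ± 0.31 (SE, limma adjusted p 0.026). PLEKHA6, a pleckstrin homology domain protein, was at 64%, 61% and 51% with S34F and 15%, 9% and 20% with WT (limma adjusted p 0.042). PPIL2, a peptidyl-prolyl isomerase found with the spliceosome, used the 5' splice site that makes the shorter intron in 91%, 64% and 72% with S34F and 47%, 29% and 24% with WT (limma adjusted p 0.028). RPS24, a protein of the small ribosomal subunit, was listed with 5' splice sites 1 nt apart and was at 50%, 45% and 54% with S34F and 84%, 96% and 98% with WT (limma adjusted p 0.026); copies of this gene elsewhere in the genome make its value uncertain. Of the groups in these 4 events none overlapped, which their choice among the largest called changes favours.

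A list of genes known as U2AF1 S34F targets had 16 genes and 111 tested events, of which 5 rose and 4 fell (8.11% called, against 0.87% of all events), in 7 genes: CTNNB1, ATR, IRAK4, PICALM, CASP8, BCOR and STRAP. The list was drawn up with earlier results of these data known, so its share is not independent of them. STRAP, which binds TGF-beta receptors and the SMN complex, included an exon in 82%, 91% and 91% with S34F and 93%, 97% and 97% with WT (limma adjusted p 0.039). CASP8 also had an alternative 5' splice site at 37%, 37% and 32% with S34F and 17% in all 3 WT libraries (limma adjusted p 0.028).

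The other 9 genes of the list did not pass. Exons of GNAS, the stimulatory G protein subunit, stood at 66%, 63% and 65% with S34F and 49%, 49% and 48% with WT (limma adjusted p 0.058), and of FXR1, an RNA-binding protein, at 69%, 69% and 70% with S34F and 53%, 57% and 56% with WT (limma adjusted p 0.061). An exon of CEP164, a centriole protein, stood at 61%, 67% and 60% with S34F and 80%, 80% and 79% with WT (limma adjusted p 0.056). In these 3 genes the groups did not overlap, and the test was missed. H2AFY, the histone variant macroH2A1, had 7%, 25% and 16% with S34F and 26%, 71% and 54% with WT at a 5' splice site (limma adjusted p 0.055), and CHCHD7 differed by −4.67 points (limma adjusted p 0.051). KMT2D (16 points), DMTN (−11), ATG7 (−2) and ASXL1 (−2.67) had limma adjusted p of 0.10 to 0.44. The groups also did not overlap in H2AFY, CHCHD7 and KMT2D, and they overlapped in DMTN, ATG7 and ASXL1. Of all tested events 15.1% had groups without overlap, and each event here was picked as the lowest p of its gene.

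**Figure D4:**
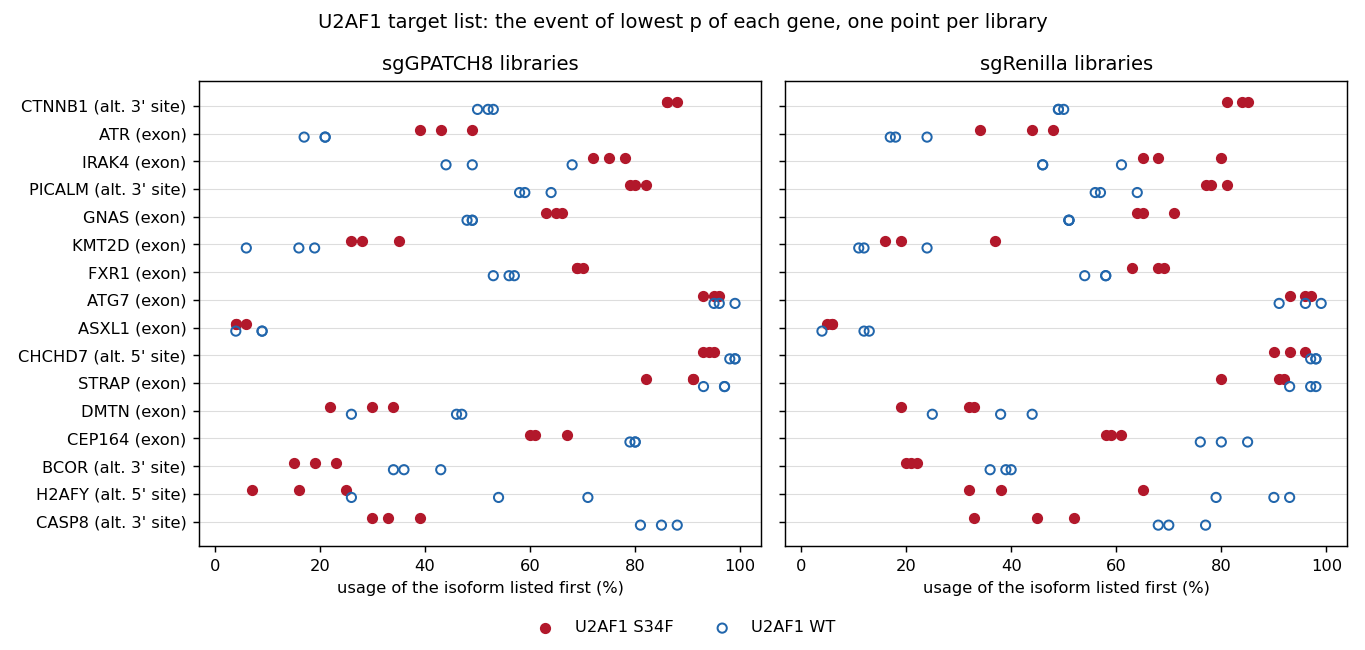
Usage in percent (x axis) of the event with the lowest p in each of the 16 measured genes of the U2AF1 target list, in the sgGPATCH8 libraries (left) and the sgRenilla libraries (right), 1 point per library, filled red for S34F and open blue for WT. CTNNB1 stands apart by genotype in both, at 81% to 88% with S34F and 49% to 53% with WT.

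Each list of splicing genes here had 0 or 1 called event, so its share says little beside the 0.87% of all tested events. Of 103 tested events in 18 genes that act at the 3' splice site and branch point, 1 was called (0.971%): an exon in the 3' UTR of U2AF2, the partner of U2AF1, included in 12%, 12% and 10% with S34F and 4%, 5% and 4% with WT (limma adjusted p 0.039). Of 49 events in 9 SR protein genes 1 was called (2.04%), an exon in the 3' UTR of SRSF2 at 15%, 15% and 13% with S34F and 7%, 5% and 5% with WT (limma adjusted p 0.037). In both genes all S34F libraries were above all WT libraries, which the rule for a call favours. None of 81 events in 19 hnRNP and PTBP genes and none of 95 events in 17 heme and iron genes was called by limma, while 19 (23.5%) and 9 (9.47%) of them had an unadjusted p under 0.05, a p that 16.8% of all tested events had.

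DNA damage and mitosis genes gave 2 in 117 (1.71%): the exon of ATR that rose and one of CHEK1, the kinase that ATR activates, which fell to 68%, 77% and 76% with S34F, against 85%, 90% and 91% with WT (limma adjusted p 0.041). Autophagy genes gave 1 in 61 (1.64%), a 5' UTR exon of ATG13 at 28%, 31% and 28% with S34F and 42%, 46% and 44% with WT (limma adjusted p 0.048). Chromatin regulators gave 1 in 79 (1.27%), the acceptor of BCOR. With 1 or 2 calls each, these shares say little about the lists.

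The difference of the same genotypes with sgRenilla uses no library of the sgGPATCH8 difference, but 1 spread over all 12 libraries served both tests. Of the 378 events, 351 differed in the same direction there (92.9%, against 59.1% of all tested events), 285 by 5 points or more in that direction (75.4%, against 20.7%) and 7 by 5 points or more in the opposite one (1.85%, against 9.47%). The differences were smaller, a median of 9 points against 17.5 where the events had been picked. The events were picked on the sgGPATCH8 difference, beside that shared spread, so this gap is no measure of the guide. With sgRenilla 15 events were called (0.0345%), while the unadjusted p was under 0.05 in 5815, and 12 of the 15 were also called with sgGPATCH8. The shared spread enters both sets of calls, so this overlap is not independent. The sgRenilla count was 150 without the filter on group means, where sgGPATCH8 had 448, and it was 1 without pairing and 0 to 6 with a library left out. All 15 went the same way with sgGPATCH8, by a median of 17 points against 19.7, but 6 of the 15 are CNOT2 events that share junctions and are not independent.

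The test of the difference itself, the interaction of S34F and the guide, gave 0 calls in limma among 43468 events, where 2960 had an unadjusted p below 0.05 and the lowest adjusted p was 0.487. CTNNB1 had close differences with either guide, 35 points with sgGPATCH8 and 34 with sgRenilla, and so did ATR (24 and 22.3), PICALM (20 and 19.7) and BCOR (−18.7 and −17.3). CASP8, of the same target list, had values further apart at the intron from 202123105. They were −50.7 points with sgGPATCH8 and −28.3 with sgRenilla (unadjusted limma interaction p 0.0056, adjusted 0.69). In CNOT2 the event described above differed by −43.7 points with each guide, while another, a skipped exon, differed by 26.7 with sgGPATCH8 and 48.7 with sgRenilla (unadjusted limma interaction p 0.0094, adjusted 0.69). Other events, picked here after their values were seen, had values further apart: CORO6 differed by 37 points with sgGPATCH8 and by −1.33 with sgRenilla, TP53I11 by 33.7 and 2.33, HDAC9 by 32 and 2.33, ZSCAN31 by −44 and 12, and ANKAR by −39.7 and 7.67. None of these passed the interaction test after adjustment (limma adjusted p 0.67 to 0.69).

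**Figure D5:**
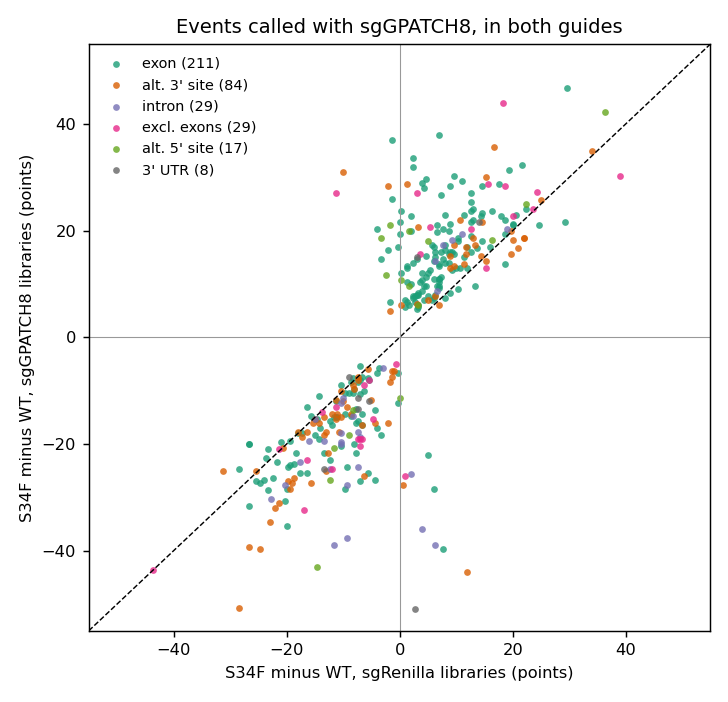
Difference of S34F minus WT in percentage points with sgGPATCH8 (y axis) against that with sgRenilla (x axis) for the 378 events called with sgGPATCH8, coloured by type, with a dashed line of equal difference. Most points lie in the quadrants of equal sign (351 of 378), and 7 moved by 5 points or more the other way.

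Since replicate 1 lay apart, the difference between replicate 1 and the mean of replicates 2 and 3 in the sgRenilla libraries was set beside the S34F effect. Of the called events 70.6% moved in the direction of that difference, against 51.4% of all tested events, and its median size was 5.88 points in called events and 3.75 in all. It was 1 point in CTNNB1 but 28.2 in UBE2Q2, 29.2 in PPIL2, 27 in BCAS3 and −49 in MST1. The part of whatever sets replicate 1 apart in these changes was not tested. All 378 called events had the same sign in all 3 pairs, which the rule for a call favours.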

How the data were processed

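Per the labels' protocols, polyadenylated RNA of K562 cells was made into strand-specific paired-end libraries. The authors deposited, for each splicing event, the fraction (0 to 1, 2 decimals) of its isoform listed first. The submitters' processing notes name TopHat, TopHat2 2.0.8b, Bowtie and RSEM 1.2.4 and build hg19 (GRCh37), and their roles are not stated in the sources used here. Depth is unknown, so no interval or floor was computed.

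Of 110816 events with coordinates, 101721 (91.8%) took a gene name from GENCODE 29 by chromosome, strand, intron length and the agreement of neighbouring events, with no conversion of coordinates. Events with a value in all 12 libraries of the U2AF1 panel, some group mean of at least 5% and some of at most 95% were tested. The log2 ratio of the isoform's fraction to the remainder, each raised by 0.01, was fitted with limma 3.58.1 (R 4.3.3) with a mean per group, replicate number as a block, 1 estimate of the spread over the 12 libraries and a trended prior, and p-values were Benjamini-Hochberg adjusted over all tested events. The steps were tested on simulated data. Figures and counts used Python 3.11.15.

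Named genes are the 12 largest called rises and falls that moved alike in all 3 pairs (1 event per gene, no tandem 3' UTRs), called events of 9 gene lists (the result of 1 list is not reported here), and the event of lowest p of each U2AF1 target. The members and lists were chosen with earlier results of these data known. The planned check of cell type markers needs gene levels and was not run. Alternatives varied the block, the offset, the filters, the scale, the difference needed for a call and the libraries used.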

Additional observations from a re-analysis of the deposited data

Results flagged for a closer look

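In ADGRV1, between acceptors 3 nt apart (chromosome 5, intron 90144638 to 90149101), the S34F effect differed by 41 points between the guides. Upstream usage was 86%, 78% and 80% with S34F sgGPATCH8 and 47%, 51% and 53% with WT sgGPATCH8, and 91%, 84% and 82% with S34F sgRenilla and 95%, 97% and 95% with WT sgRenilla. All 3 pairs rose with sgGPATCH8 and all 3 fell with sgRenilla. The interaction had an unadjusted limma p of 4.49e-05 and an adjusted p of 0.65, so it failed the correction over all tested events. ADGRV1 was not alone in this. The retained intron of MST1 differed by −45.3 points between the guides (unadjusted limma interaction p 4.18e-05, adjusted 0.65). An alternative 5' splice site of MBD6 differed by 77 points (unadjusted limma interaction p 0.000255, adjusted 0.67).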

How the results depend on the processing

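With sgGPATCH8, 378 events were called with the replicate block and 10 without it. The sgRenilla count was then 1 in place of 15, the interaction stayed at 0 and 3 of the 36 called named events passed. Deviations from the group means correlated at 0.243 between the replicate 1 libraries of S34F and WT with sgGPATCH8. They correlated at 0.075 and 0.086 for replicates 2 and 3, and at 0.076 across those numbers, so pairing shows in the data for replicate 1 only. With a missing value allowed in each group, 132 events were called (20 of the named events, and 8 with sgRenilla), and upstream usage was higher in 63.3% of events with a downstream TAG, 40.7% with AAG and 44.1% with GAG. Without the filter on group means sgGPATCH8 had 448 calls, sgRenilla 150 and the interaction 2, CSNK1D and an exon without a gene name, seen after the fact. A fit of only the 6 sgGPATCH8 libraries gave 0 calls and 0 of the named events. Leaving out replicates or single libraries gave 0 to 3 calls with sgGPATCH8 (0 to 2 of the named events), 0 to 6 with sgRenilla and 0 to 1 for the interaction, the 1 being a retained intron of the pseudogene PKD1P5 without S34F sgGPATCH8 replicate 1. Without replicate 1, 2 or 3 the shares were 60.7% to 63.8% for TAG, 49.7% to 50.4% for CAG, 40.6% to 41.7% for AAG and 41.4% to 44.6% for GAG. No named event changed direction under any of these settings, which reuse the same libraries. An offset of 0.05 gave 521 calls, a test on the fraction 372, at least 10 points 312, no tandem 3' UTR events 332 and a prior without a trend 305. The cause of these differences was not tested. The groups have 3 libraries each, and the depth behind the fractions is unknown, so fractions near 0 or 1 were not weighted by it.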

Other observations

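Several genes held more than 1 called event, and the genes here were picked after their values were seen. Of the 297 named genes 38 had 2 or more called events and 4 had 4 or more. PLAGL1, an imprinted zinc finger gene, had 8, 2 up and 6 down, which share exons on chromosome 6. Inclusion of an exon after the intron from 144269597 to 144285924 was 90%, 85% and 86% with S34F sgGPATCH8 and 81%, 61% and 59% with WT sgGPATCH8 (limma adjusted p 0.037). Inclusion of another, after the intron from 144281693 to 144285924, was 23%, 36% and 38% with S34F and 39%, 62% and 69% with WT (limma adjusted p 0.034). With S34F the second fell as the first rose.

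CNOT2, described in the report by its event that fell, had 7, 6 up and 1 down. Among those that rose, usage of the upstream acceptor from 70672054 to 70687851 on chromosome 12 was 25% in all 3 S34F libraries and 7%, 10% and 11% with WT (limma adjusted p 0.028).

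ARFIP2, which encodes an arfaptin, had 5. An upstream acceptor on chromosome 11 (intron 6501693 to 6502461) was used in 71%, 72% and 75% with S34F and 58%, 50% and 54% with WT (limma adjusted p 0.05), while the intron from 6500587 to 6501202 was spliced in 53%, 49% and 50% with S34F and 79%, 74% and 73% with WT (limma adjusted p 0.028). WDR6 had 4: its intron from 49048949 to 49049068 on chromosome 3 was spliced in 42%, 42% and 52% with S34F and 68%, 77% and 74% with WT (limma adjusted p 0.041). An upstream acceptor of WDR6 (intron 49046457 to 49048854) was used in 36%, 35% and 30% with S34F and 20%, 15% and 14% with WT (limma adjusted p 0.032). Events of 1 gene share junctions and are not independent.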
